A study of Papaver somniferum with 12 samples.

Results

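In leaves of opium poppy (Papaver somniferum), 26 unigenes fell in level by at least a set minimum at each successive growth phase. The phases ran from seedling through jointing and bolting to florescence. These unigenes were taken from the 14941 with a deposited mean of 5 to 1000 RPKM over 12 libraries. A unigene is a non-redundant transcript sequence that the authors assembled from long reads, and RPKM corrects the reads of a unigene for its length and for the sequencing depth. The 26 were chosen by their measured values. Each library was first scaled by its median of ratios, and the phase mean of log2(scaled RPKM + 1) had to fall by at least 0.4 at each of the 3 steps. The rule allowed 200 unigenes, but 26 of the 61856 in the table met it and all were kept. They are ranked here by the difference of the seedling and florescence means, from 1 (largest) to 26. Because the rule used the phase means, the falls below are a description of the chosen unigenes and none was tested.

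The study followed the original cultivar, B1, through the season. The labels name leaf tissue of 4 phases with 3 libraries each, namely seedling, jointing, in which the stem grows tall, bolting, in which a bud first shows, and florescence, when the plant first blooms. The study's methods describe the libraries of a phase as independent samples and the leaf as the uppermost one. Its filling phase was not analysed here. No treatment, mutant or other genotype enters these groups, and phase, plant age and calendar date change together and cannot be told apart. RNA integrity, as the study reports it, also differed between phases. It was highest at jointing, and a florescence library lay below the study's stated minimum. The part of RNA integrity in the measured levels was not tested. The comparison asks how transcript levels in the leaf move as the plant grows towards flowering. As background, a leaf begins as a dividing and expanding organ, then works mainly as the site of photosynthesis, and around flowering starts to export its nutrients to the reproductive organs, so that many transcripts of early leaf growth are known to be lost with age. The labels do not give the age of the sampled leaves, and the uppermost leaf of a later phase need not be an older leaf. Opium poppy leaves also carry laticifers, the latex-bearing cells in which its benzylisoquinoline alkaloids are stored.

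The table names each unigene by an identifier only, and 0 of the 61856 identifiers occurred in the RefSeq gene table at hand, so names, functions, sequences and positions of the 26 were not analysed here, and leaf marker genes could not be looked up. For this reason 2 members are given by identifier and the others by rank. The first number of an identifier was different for all 61856 unigenes, so no member had a second unigene of the same first number. In leaf RNA a lower level can come from fewer cells of a type or from less RNA per cell, which cannot be told apart here.

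The summed RPKM of a library lay between 998634 and 1175897, and the table gives no read counts. The scaling factors, computed on 43618 unigenes above 0 in all 12 libraries, were 0.830 to 0.901 at seedling and 1.11 to 1.28 at jointing, then 0.844 to 0.947 at bolting and 1.14 to 1.23 at florescence. They differed between phases, so scaling lengthens some steps and shortens others. Among all 14941 unigenes of this level the median fall was 0.12 from seedling to jointing, -0.10 from jointing to bolting and 0.03 from bolting to florescence on scaled values, against -0.29, 0.24 and -0.32 on deposited values. A negative fall is a higher level in the later phase. The members' falls are to be read against these medians. No pair of libraries shared more than 0.315% of identical values over these unigenes.

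The 26 members differed widely in level. Their phase means had a median of 111 scaled RPKM at seedling and 58.0 at jointing, then 28.2 at bolting and 8.88 at florescence. The lowest seedling mean among them was 11.5 and the highest 1578 scaled RPKM, while at florescence the means ran from 0.109 to 183. Their deposited 12-library mean ran from 5.57 to 550.5 RPKM with a median of 54.1 RPKM, against 13.9 RPKM for all 14941 unigenes of the same level limits. Together they held 0.456% ± 0.0572 of the summed deposited RPKM of a seedling library and 0.246% ± 0.0665 at jointing, then 0.115% ± 0.0374 at bolting and 0.0882% ± 0.0332 at florescence (SD, n = 3). The most abundant member, rank 15, made up 26.2% of the members' summed scaled RPKM at seedling.

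**Figure D1:**
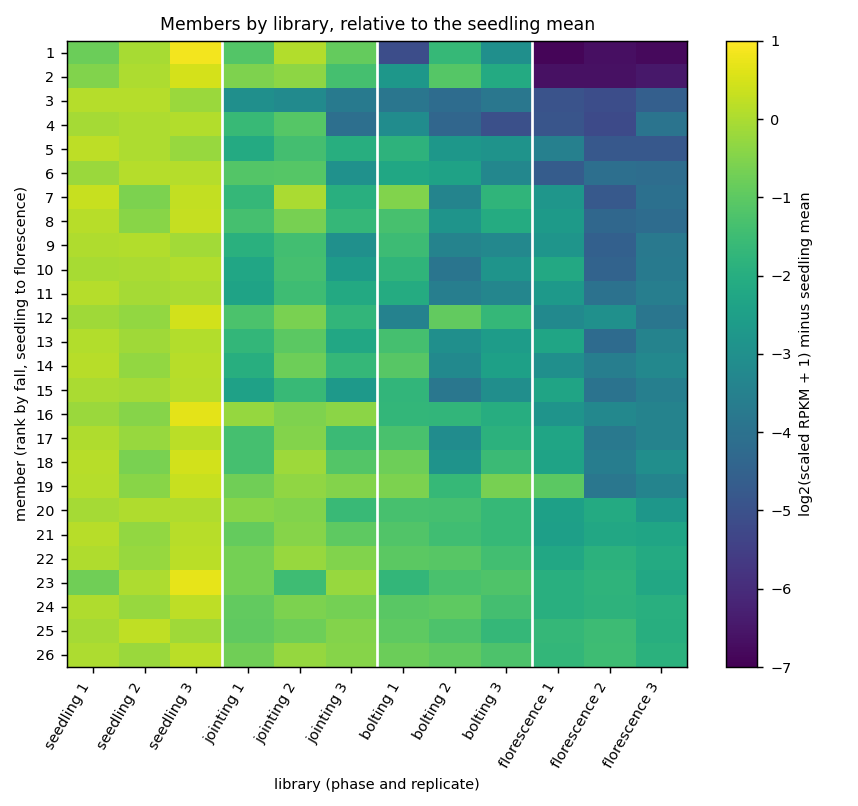
Heat map of the 26 members (rows, by rank) in the 12 libraries (columns, by phase and replicate). Colour gives log2(scaled RPKM + 1) minus the member's seedling mean, and rows darken from left to right down to the florescence libraries of ranks 1 and 2, with jointing replicate 2, bolting replicate 1 and florescence replicate 1 lighter than the other libraries of their phase in 12 rows between ranks 5 and 19.

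The whole fall from seedling to florescence had a median of 3.29 on the log2(scaled RPKM + 1) scale and ran from 1.68 to 6.79. As a ratio of mean scaled RPKM this is a median 9.98-fold lower level at florescence, and 3.22-fold for the member that changed least. The log2(value + 1) scale understates the change of the members with low florescence values. The first step, seedling to jointing, had a median fall of 1.17 (range 0.41 to 3.28). The step from jointing to bolting had a median of 0.69 (range 0.41 to 2.61), and the last, to florescence, had a median of 0.99 (range 0.41 to 4.58). The longest step was seedling to jointing in 12 members, bolting to florescence in 13 and jointing to bolting in 1. In 15 members the jointing to bolting step was the smallest of the 3. The order of the 3 medians depended on the scaling. The middle step had the largest median on deposited values (0.73, 1.06 and 0.72 in time order) and with libraries set to equal totals (0.69, 1.14 and 0.56). With quantile normalization the last step had the largest and the first the smallest (0.79, 0.87 and 0.97). Without bolting replicate 1 the middle step exceeded the last (1.14 against 0.78).

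**Figure D2:**
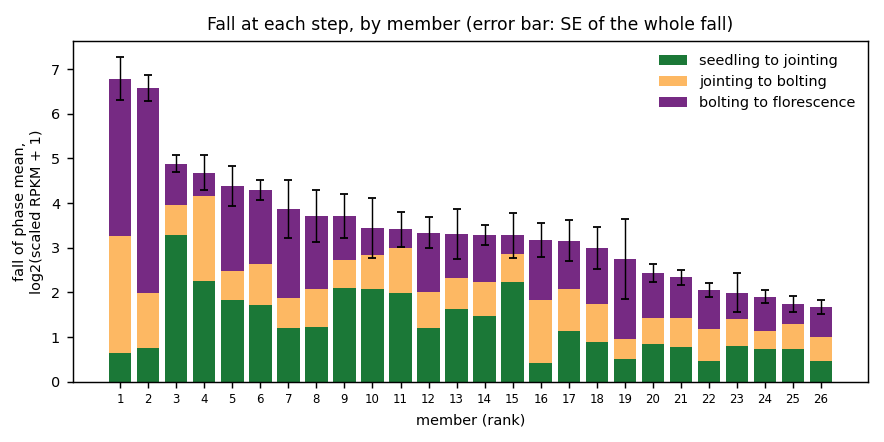
Fall of the phase mean on the log2(scaled RPKM + 1) scale for each member by rank, stacked by step, with the SE of the whole fall (n = 3 libraries a phase) as error bar. The florescence step makes up most of ranks 1 and 2, whose whole falls were 6.79 and 6.58, and the seedling to jointing step most of rank 3.

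The individual libraries showed how far each step stood out from the spread within a phase. Between seedling and florescence the libraries did not overlap in 26 of 26 members, a contrast the rule used, and the same held, with the later phase lower, for 36.1% of all 14941 unigenes. From seedling to jointing 19 members did not overlap (all unigenes 36.1%), from jointing to bolting 8 (all 12.1%) and from bolting to florescence 12 (all 28.3%). In 5 members, ranks 3, 21, 22, 24 and 26, the libraries were apart at all 3 steps, as in 0.114% of all unigenes. The fall was larger than 2 of its own SEs in 20 members at the first step, 9 at the second and 13 at the third, and in 26 over the whole course. At the second step most members thus fell by less than 2 SEs. The rule chose the members by these falls, and the share of all unigenes over 2 SEs was not computed, so nothing is read from these counts. The overlap counts also depended on the scaling. On deposited values, with equal totals and with quantile normalization, in this order, 11, 10 and 12 members were apart at the first step, 15, 16 and 9 at the second, and 3, 4 and 1 at all 3. Single libraries moved them too: without bolting replicate 1 the jointing to bolting count was 19 and the median fall of that step 1.14, and without florescence replicate 1 the bolting to florescence count was 20. Phases left with 2 libraries are apart more easily. The shares of all unigenes were not computed for these other scalings and left-out libraries, so nothing is read from their counts.

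Several patterns were seen among the 26, by the level reached at florescence and by the spread within phases. These groups were formed after the values were seen.

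The first group was nearly off at florescence. It holds the 4 members with a florescence mean under 1 scaled RPKM, ranks 1, 2, 3 and 16. PB.59990.1, the member with the largest fall, had 76.7, 130.1 and 245 scaled RPKM in the seedling libraries (replicates 1, 2 and 3 in this order throughout) and 60.5, 141 and 72.6 at jointing, then 2.94, 42.1 and 15.6 at bolting and 0.150, 0.320 and 0.227 at florescence. All florescence libraries were under 1 and all seedling and jointing libraries above 60, but the bolting libraries spanned a 14.3-fold range. Its falls were 0.65 ± 0.60, 2.61 ± 1.07 and 3.52 ± 1.01 (SE, n = 3 libraries a phase) at the 3 steps in order and 6.79 ± 0.48 in all. Seedling and jointing libraries of PB.59990.1 overlapped, so the first step was not beyond their spread. The member of rank 2 had 73.7, 106 and 147 scaled RPKM at seedling and 71.9, 81.8 and 40.2 at jointing, then 14.6, 47.8 and 23.6 at bolting and 0.0705, 0.0692 and 0.187 at florescence. Its largest step was the last, with a fall of 4.58 ± 0.48 (SE), or 69.7% of the whole fall, and its florescence values lie close to the last of the 2 decimals that the table gives. The member of rank 3 had 52.5, 52.4 and 41.9 scaled RPKM at seedling and 5.20, 4.56 and 2.84 at jointing, then 2.42, 1.76 and 2.52 at bolting and 0.599, 0.424 and 1.10 at florescence. Here the order was reversed in time, with 67.3% of the fall at the first step and no overlap of libraries at any step. The member of rank 16 had 9.73, 7.99 and 18.6 scaled RPKM at seedling and 9.21, 7.38 and 8.38 at jointing, then 2.82, 2.70 and 2.04 at bolting and 0.713, 0.277 and 0.154 at florescence. It is the only member whose longest step was jointing to bolting, with a fall of 1.41 ± 0.13 (SE) and no overlap there, whereas its seedling and jointing libraries overlapped and the fall between them was 0.41 ± 0.35. A ratio to values this low is uncertain, since the table gives no read counts behind them.

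**Figure D3:**
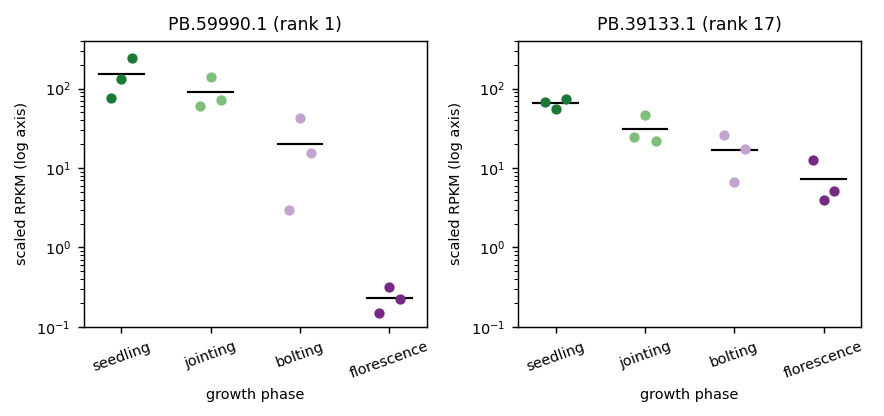
Scaled RPKM (log axis) of PB.59990.1 and PB.39133.1 in each library, by growth phase, with points for replicates 1 to 3 from left to right and a line at the mean of the 3 libraries. PB.59990.1 ends under 1 scaled RPKM at florescence, while PB.39133.1 declines by similar amounts at each step on this scale, with phases that overlap after seedling.

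The second group was the largest. In 12 members, ranks 5, 7 to 11, 13 to 15 and 17 to 19, jointing replicate 2, bolting replicate 1 and florescence replicate 1 were each the highest library of their phase. Of all 14941 unigenes 7.62% had these same 3 libraries highest, and of the 853 with a within-phase SD of at least 0.5, 23.0% did. PB.39133.1, rank 17, belongs here and is the member with the most even decline on scaled values, its smallest step being the largest smallest step of the list. It had 68.4, 55.7 and 74.4 scaled RPKM at seedling and 24.9, 46.2 and 22 at jointing, then 26.2, 6.65 and 17.6 at bolting and 12.6, 3.95 and 5.20 at florescence. The falls of PB.39133.1 were 1.13 ± 0.34, 0.96 ± 0.63 and 1.07 ± 0.70 (SE) at the 3 steps. Its seedling libraries lay above all later ones, but bolting replicate 1 exceeded both jointing replicates 1 and 3, and florescence replicate 1 exceeded bolting replicate 2.

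The same libraries stood high in the abundant members of this group. Rank 15, the most abundant member, had 1553, 1495 and 1686 scaled RPKM at seedling and 296, 517 and 241 at jointing, then 473, 109.8 and 191 at bolting and 316, 100.04 and 132 at florescence. Rank 13 had 932, 794 and 936 scaled RPKM at seedling and 269, 441 and 193 at jointing, then 346, 108 and 146 at bolting and 180.5, 47.4 and 81.0 at florescence. In both, 1 library stood well above the other two at jointing, at bolting and at florescence, while the seedling libraries were close. The bolting to florescence fall of rank 15 was 0.41 ± 0.79 (SE), smaller than its error, and its main step was seedling to jointing at 2.24 ± 0.33. Rank 10 had 379.7, 389 and 422 scaled RPKM at seedling and 81.4, 154 and 63.9 at jointing, then 115, 25.6 and 53.4 at bolting and 87.4, 17.0 and 29.7 at florescence. Rank 9 had 366, 375 and 331 scaled RPKM at seedling and 93.0, 132 and 44.6 at jointing, then 124, 32.3 and 36.4 at bolting and 49.3, 14.3 and 25.5 at florescence. For ranks 9 and 10 the seedling libraries agreed within a narrow range while the later phases spread widely.

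Rank 5 had 239, 209 and 178 scaled RPKM at seedling and 47.1, 78.7 and 51.2 at jointing, then 57.9, 29.9 and 27.3 at bolting and 17.0, 6.45 and 6.46 at florescence. Rank 8 had 252, 168 and 276 scaled RPKM at seedling and 87.4, 146 and 70.1 at jointing, then 90.5, 30.6 and 52.7 at bolting and 35.4, 10.5 and 11.7 at florescence. Both had their longest step at florescence, with falls of 1.89 ± 0.54 and 1.63 ± 0.69 (SE), and rank 5 was the only member of this group with bolting and florescence libraries apart. Rank 7 had 42.1, 22.2 and 40.3 scaled RPKM at seedling and 9.93, 32.9 and 7.92 at jointing, then 23.3, 2.30 and 9.24 at bolting and 3.99, 0.268 and 1.07 at florescence. It had the widest within-phase SD of all members, 1.05 on the log2 scale, and its phases overlapped at every step. The remaining members of the group had seedling means of 69.3 ± 5.02 (rank 11), 84.2 ± 14.3 (rank 14), 353 ± 121 (rank 18) and 178 ± 45.1 scaled RPKM (rank 19). Their florescence means were 6.11 ± 3.47, 7.77 ± 1.72, 44.3 ± 19.6 and 37.4 ± 41.3 in the same order (SD, n = 3). In rank 19 the florescence value of replicate 1 was 85.1 scaled RPKM, against 11.5 and 15.6 in the other two.

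Within this group the bolting libraries lay far apart. The highest bolting library was a median 3.88-fold above the lowest (range 2.10 to 10.1), against 1.503-fold in the other 14 members (range 1.303 to 14.3). The median deviation from the phase mean was 0.64 for jointing replicate 2, 0.97 for bolting replicate 1 and 0.92 for florescence replicate 1. The group was formed by these 3 libraries being highest, so positive deviations there are given in advance and only describe the group. On the low side stood bolting replicate 2 at -0.87 and florescence replicate 2 at -0.64, whereas the seedling libraries deviated by -0.19 to 0.12. Over all 14941 unigenes the median deviation of a library lay between -0.03 and 0.05, as the scaling brings the libraries to a common middle. In 12 of the 12 members of the group bolting replicate 1 was above at least 1 jointing library, as in 3 of the other 14. Jointing and bolting libraries were thus apart in 0 of the 12, against 12.1% of all 14941 unigenes. The group was formed by bolting replicate 1 being the highest of its phase, which favours such overlap. The share of all unigenes with bolting replicate 1 above a jointing library was not computed. Bolting replicate 1 was above jointing replicate 2 in 0 of the 26 members. The rule required a lower mean at bolting than at jointing, which favours such a count. Its counterpart over all unigenes was not computed either, so nothing is read from it. The labels give no property that sets the 3 libraries apart, and the source of their shared high values was not tested.

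**Figure D4:**
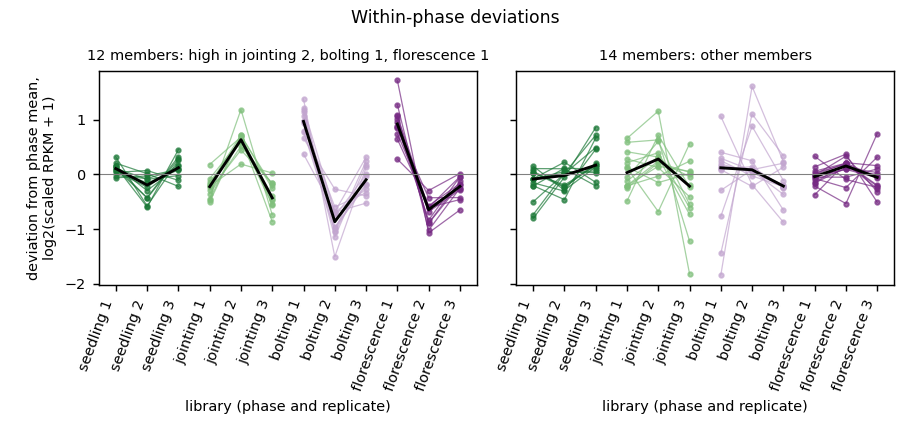
Deviation of each library from the mean of its phase, log2(scaled RPKM + 1), for the 12 members with jointing replicate 2, bolting replicate 1 and florescence replicate 1 highest (left) and the other 14 (right). Thin lines are members, black lines the median, which reaches 0.97 at bolting replicate 1 on the left and 0.12 on the right. The left group was formed by these 3 libraries, so its high medians there follow from that choice.

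The within-phase deviations of these 12 members went together across the 12 libraries, with a mean pairwise Pearson r of 0.868, a value that follows in part from how the group was formed. It was 0.242 over all 26 members, 0.162 over the other 14 and 0.0217 over all 14941 unigenes. The deviations come from the same libraries and the same scaling for every unigene, so these values are a description.

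The third group had close replicates. It holds ranks 21, 22, 24, 25 and 26, and with rank 3 these are the 6 members with a within-phase SD under 0.3. Rank 24 had 323, 268 and 365 scaled RPKM at seedling and 165, 211 and 198 at jointing, then 153, 158 and 121 at bolting and 81.6, 89.0 and 80.2 at florescence. Its phases did not overlap and its within-phase SD, 0.182, was the lowest of the list. Rank 26 had 391, 335 and 431 scaled RPKM at seedling and 231, 319 and 283 at jointing, then 219, 197 and 164 at bolting and 118, 138 and 104 at florescence. Rank 22 had 65.8, 54.1 and 71.3 scaled RPKM at seedling and 39.1, 53.8 and 44.0 at jointing, then 30.5, 29.5 and 23.1 at bolting and 12.9, 16.8 and 13.9 at florescence. In these 2 members the jointing values of replicate 2 were the highest of their phase, and at every step the lower phase lay wholly below the higher one. Rank 21 had 101, 74.3 and 100.4 scaled RPKM at seedling and 48.5, 66.5 and 46.0 at jointing, then 39.6, 32.5 and 28.2 at bolting and 15.3, 18.8 and 17.6 at florescence. Rank 25 had means of 113 ± 16.0, 67.5 ± 10.9, 46.1 ± 10.5 and 33.4 ± 5.52 scaled RPKM at the 4 phases (SD, n = 3), with bolting and florescence libraries overlapping. The whole falls of these 5 were the smallest but for rank 23, from 1.68 ± 0.16 (SE) for rank 26 to 2.34 ± 0.17 for rank 21, and their florescence means were 3.22 to 5.33-fold below those at seedling. None of the 5 met the step minimum on deposited RPKM, where their steps were less even: rank 22 fell by 0.04, 1.07 and 0.52, rank 25 by 0.30, 0.92 and 0.07 and rank 26 by 0.03, 0.89 and 0.31.

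The remaining members, ranks 4, 6, 12, 20 and 23, did not have all 3 libraries of the second group highest. In ranks 4 and 6 jointing replicate 2 and bolting replicate 1 were the highest of their phases, but florescence replicate 1 was not. Rank 4 had 53.7, 57.7 and 59.6 scaled RPKM at seedling and 18.2, 26.1 and 2.45 at jointing, then 5.77, 1.85 and 0.771 at bolting and 0.951, 0.563 and 2.79 at florescence. Jointing replicate 3 was far below its partners and within the range of the bolting libraries, and the fall from bolting to florescence, 0.52 ± 0.68 (SE), was smaller than its error. Rank 6 had 142, 178 and 176 scaled RPKM at seedling and 74.0, 76.4 and 20.5 at jointing, then 34.3, 30.7 and 16.0 at bolting and 5.497, 8.77 and 8.41 at florescence. Rank 12 had 30.03, 26.9 and 46.5 scaled RPKM at seedling and 13.5, 21.8 and 9.28 at jointing, then 2.13, 17.3 and 9.80 at bolting and 2.75, 3.401 and 1.40 at florescence. In rank 6 jointing replicate 3 was again low, and in rank 12 bolting replicate 1 was low where it was high in the second group. Ranks 20 and 23 were among the weakest expressed members, with 12.5 ± 0.693 and 11.5 ± 6.04 scaled RPKM at seedling and 1.53 ± 0.573 and 1.91 ± 0.397 at florescence (SD, n = 3). Their florescence libraries lay below all bolting libraries, but their jointing and bolting libraries overlapped.

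Replicate libraries of the members were close at seedling and farther apart later. The within-phase SD on the log2(scaled RPKM + 1) scale, on which the rule set no limit, had a median of 0.643 over the members (range 0.182 to 1.05) and 0.173 over all 14941. By phase the members' median SD was 0.212 at seedling and 0.563 at jointing, then 0.792 at bolting and 0.390 at florescence. The corresponding medians over all 14941 unigenes were 0.118, 0.189, 0.152 and 0.133. Among the members the median SD was thus lowest at seedling and highest at bolting. The rule chose by phase means, and scattered libraries can move such means past the step minimum. The members' wider SD can thus follow in part from the choice. No unigenes of equal fall or level were set beside them, and the difference from the whole was not tested.

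Few unigenes fell by at least 0.4 both from seedling to jointing and from jointing to bolting. These 2 steps share the jointing mean and are not independent. A fall of at least 0.4 was found in 4060 of the 14941 unigenes from seedling to jointing, in 1433 from jointing to bolting and in 3472 from bolting to florescence, but in 77 at the first 2 steps together. The opposite course, a rise of at least 0.4 at each step, was met by 15. A whole fall at least as large as that of the last member was seen in 502 unigenes, of which 79 had a lower mean at every step. Among these 502, the jointing to bolting step was under 0.4 in 298, the seedling to jointing step in 260 and the last step in 43.

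Unigenes lay closely on both sides of the step minimum. The 3 members closest to it had smallest steps of 0.413 (rank 15), 0.412 (rank 16) and 0.412 (rank 24), and the 3 nearest unigenes outside had 0.390, 0.389 and 0.381, with whole falls of 3.56, 1.97 and 1.38. The first of these left-out unigenes had a whole fall larger than that of 17 members.

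Which unigenes met the rule depended on the scaling. On the deposited RPKM all 26 members also had a lower mean at each successive phase, while 12 still fell by at least 0.4 at every step. The median fall from seedling to jointing was then 0.73, with 9 members under 0.4, and that from bolting to florescence was 0.72, with 8 under it. From jointing to bolting it was longer, 1.06, with 0 members under 0.4, so that on deposited values the middle step had the largest median of the 3. With equal totals 20 members and with quantile normalization 26 had a lower mean at every step. PB.39133.1 fell by 0.70, 1.31 and 0.73 on deposited values and met the minimum, whereas PB.59990.1, at 0.21, 2.96 and 3.35, did not at the first step.

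**Figure D5:**
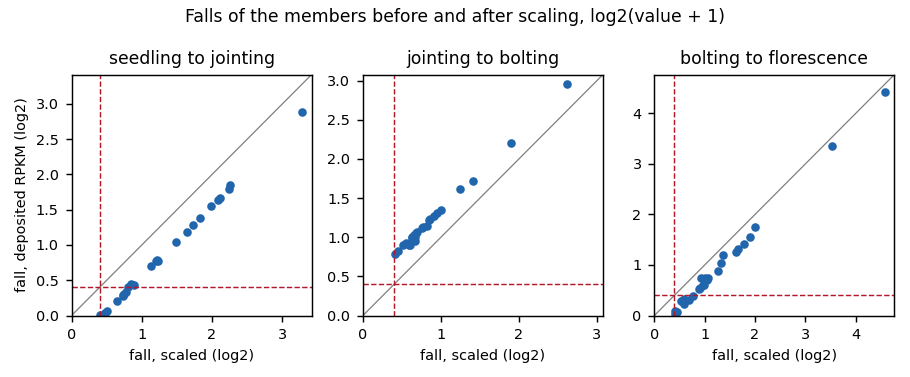
Fall of each member on deposited RPKM (vertical) against that on scaled RPKM (horizontal) at the 3 steps, both on log2(value + 1), with a grey line of equality and dashed lines at the minimum of 0.4. Points lie below the line at the first and last step and above it at the middle step, where the median was 1.06 deposited and 0.69 scaled.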

How the data were processed

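RNA of 12 opium poppy leaf samples, 3 for each of 4 growth phases, was extracted with TRIzol and read as paired ends on an Illumina platform. The authors mapped the short reads with hisat2 (HISAT2 2.05 per the submitters' processing notes) to unigenes built from pooled PacBio reads of the same cultivar, estimated expression with RSEM and deposited RPKM with at most 2 decimals. The methods also name FPKM, and no scaling between libraries is stated. RSEM divides reads between similar sequences by estimation, so a unigene with near-identical relatives is uncertain. Columns were matched to samples by the library code in the sample descriptions, and 0 columns were left over.

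Libraries were divided by their median of ratios, and y = log2(scaled RPKM + 1) was averaged by phase (Python 3.11.15, numpy 2.4.6, pandas 2.3.3). An SE of a fall combines the variances of both phases. The members, groups and settings were chosen with earlier results of these data known, so no p-value was computed. The step minimum, level limits and scaling are those of the rule. The printed identifiers are those of the member with the largest whole fall and of the member whose smallest step is largest. Others are given by rank, in every library for ranks 1 to 10 and for those that a statement rests on. The code was checked on simulated data with planted falls. Their steps were well above the minimum and their within-phase spread was capped below that of most members. The check therefore does not show how the rule works at the spread and small steps seen here. Alternatives were other scalings, pseudocounts 0.1 and 5, other limits, and each library left out. The count-based test of the authors needs read counts and was not used. The table holds no read counts per unigene, so no interval from counting was given.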

Additional observations from a re-analysis of the deposited data

How the results depend on the processing

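No paired analysis was possible because no result comes from a test and the labels do not tie same-numbered samples of different phases to each other. Of 270 alternative values 235 stayed within 1.5 times a count or within the spread between libraries. Many of these could not move, such as the count of unigenes sharing a first number, or overlap counts under another pseudocount. Counts cannot change sign and the members were chosen as falling, so the tally does not measure how stable the results are. On deposited values 17 unigenes met the rule (12 of them members), the median falls were 2.89 in all, 0.73 to jointing and 1.06 to bolting, and libraries were apart in 11 members at the first step, 15 at the second and 3 at all 3. With equal totals 11 members met it, with 2.79 in all, 0.69, 1.14 and 0.56 by step, and 10 and 16 apart at the first 2 steps. Quantile normalization gave 17 unigenes, 15 of them members, a first fall of 0.79 with 12 apart, and 1 apart at all steps. These scalings set other levels between phases by construction. Pseudocount 5 gave a whole fall of 2.79, and for PB.59990.1 it was 8.70 with pseudocount 0.1 and 4.74 with 5. A step minimum of 0.3 gave 42 unigenes.

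With each library left out in turn, 20 to 38 unigenes and 18 to 26 members met the rule, 7 members in every case, and 22 kept a lower mean at every step. The median whole fall ran from 3.03 to 3.68, the step to bolting from 0.51 to 1.14 and to florescence from 0.78 to 1.31, and the members apart from 8 to 19 and 12 to 20. The highest of these counts came without bolting replicate 1 and without florescence replicate 1. Jointing replicate 2, bolting replicate 1 and florescence replicate 1 were also left out together, a choice made after seeing the data. This gave a whole fall of 3.69, a first step of 1.48 and a within-phase SD of 0.406. Then 20, 21 and 13 members were apart at the middle, the last and all steps. In this setting 25 unigenes met the rule, 19 of them members, and 24 members kept a lower mean at each step. Phases with 2 libraries are apart more easily, and the share of all unigenes apart was computed for the main setting only. Values near 0.1 RPKM come without the read counts that would give their error.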

Other observations

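A few unigenes outside the list followed its mean profile closely. Over the 12 libraries, 7 of 14915 other unigenes of the same level limits had a Pearson r of at least 0.95 with the mean log2(scaled RPKM + 1) of the 26 members, and 4 had one of -0.95 or below. Of the members themselves 10 reached 0.95, where each is part of the mean, and their lowest r was 0.808. The 7 others had shorter falls, from 0.70 to 1.41 between seedling and florescence, and 5 of them missed the minimum from jointing to bolting. In 2 of them jointing replicate 2, bolting replicate 1 and florescence replicate 1 were the highest libraries of their phases. All values share the libraries and the scaling, and these correlations are a description.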
